A study of Mus musculus with 2 samples.

Results

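The proteasome subunits measured here were the 49 genes whose symbols run from *Psma* to *Psmg* with a number and at most 1 further letter, taken by symbol from the 34745 genes of the deposited table. They were divided into 8 alpha subunits of the core, 7 standard beta subunits, the 3 immunoproteasome beta subunits, 6 ATPases and 14 non-ATPases of the 19S cap, and 10 activators, inhibitors and assembly factors. The thymic beta subunit gene *Psmb11* had 0 counts in both libraries, which allows up to 3 in each, and was left out of every fold change, so that 48 members had at least 10 counts over both libraries.

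The proteasome degrades proteins that carry a ubiquitin chain. Its barrel-shaped 20S core is built of rings of alpha and beta subunits, with the protease sites on the inner face of some beta subunits, and the 19S cap binds the ubiquitinated protein, removes its chain and unfolds it with a ring of ATPases. Interferon induces a variant core, the immunoproteasome, in which *Psmb8*, *Psmb9* and *Psmb10* take the places of *Psmb5*, *Psmb6* and *Psmb7*, and it favours peptides for presentation on MHC class I. In liver cells the genes of the standard subunits are induced together by the transcription factor Nrf1 (*Nfe2l1*) when proteasome activity runs short.

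Liver RNA from miR-182-5p KO and WT males aged 8 to 10 weeks was sequenced 3 days after partial hepatectomy (PH), in which 70% of the liver was removed, with 1 library per genotype. Both groups had PH, and only livers after PH are analysed here, so each value is a difference between genotypes in regenerating liver. The study describes its KO mice as heterozygous, from a Japanese resource bank, and lists C57BL/6J mice from a commercial supplier, and the number of mice behind each library is not given in the sources used here. The comparison asks how the liver transcriptome differed when miR-182-5p was reduced. Without replicates no test of the genotypes exists and no p-value is given. A gene was called at a 2-fold change, and the exact 95% binomial interval beside a log2 fold change covers counting error only.

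The libraries held 13247497 counts (KO) and 13163348 counts (WT), of which the 13 mitochondrial protein-coding genes took 51.7% (KO) and 31.0% (WT). Fold changes were therefore taken from counts scaled by the trimmed mean of M-values (TMM), under which the KO library had 0.663 of the effective size of the WT library, so a gene at the same level in both would have 0.663 KO counts per WT count. The median of all 13561 tested genes then lay at 0.00057 on the log2 scale. Scaling by total counts moved that median by -0.60 and every member by about as much, and the fold changes below are to be read relative to the median of all genes. The hepatocyte marker *Alb* had 339876 counts (KO) and 536544 counts (WT). As these are bulk samples, fewer cells of a type and less RNA per cell cannot be told apart, and what the unequal mitochondrial share contributes to any value below was not tested.

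The miRNA reduced in the heterozygous KO mice has the mature sequence below, at chr6:30165962-30165986 on the minus strand (RefSeq, GRCm38.p6). Bases 2 to 8, the seed that pairs with targets, are in capitals.
miR-182-5p: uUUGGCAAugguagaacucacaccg
The 8-base match to this seed, TTGCCAAA, occurred in the annotated 3′ UTR of 1 of the 48 members, *Psmd13* (2.08%), and of 690 of 12541 tested genes (5.50%). *Psmd13*, a subunit of the 19S lid, had 101 KO counts and 288 WT counts. Its log2 fold change was -0.92.

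The proteasome genes were slightly lower in the KO library than in the WT library, as a group and across most roles. Of the 48 tested members, 37 (77.1%) had a log2 fold change below 0, against 50% of all tested genes, and their median was -0.26, with quartiles of -0.56 and -0.07. Few of the differences were large. Only *Psmf1*, *Psmd10* and *Psmb7* were past a 2-fold change in the lower direction (6.25% of members, against 9.94% of all tested genes), and only *Psma8* in the higher direction (2.08%, against 9.46%). The 2-fold calls were thus no more frequent among the members than among all genes, and the difference lay in the many small shifts of the same sign.

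The counting intervals show the same pattern. The interval lay below 0 for 31 of the 48 members (64.6%, against 26.2% of all tested genes) and above 0 for 4 (8.33%, against 25.8%). Members have more counts than most genes and so narrower intervals, with a median of 1051 counts over both libraries against 229 for all tested genes. Among genes of at least 200 counts, a limit chosen after the data had been seen, the interval lay below 0 for 30 of 45 members (66.7%, against 33.1% of genes) and above 0 for 4 of 45 (8.89%, against 31%). Summed over all 49 members, 22042 KO counts and 39309 WT counts were found, which is 0.344% of the counts outside the mitochondrial genes in the KO library (exact 95% interval 0.340% to 0.349%) and 0.433% in the WT library (0.428% to 0.437%).

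**Figure D1:**
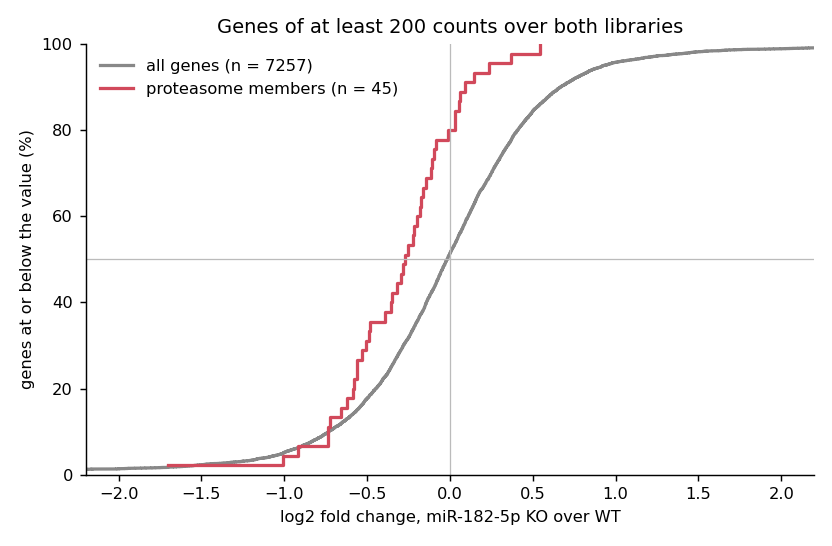
Share of genes (%, vertical axis) at or below each log2 fold change of KO over WT (horizontal axis) among genes of at least 200 counts, for 45 proteasome members and for all 7257 genes. The members' line lies left of the line for all genes over most of its range, with a median of -0.27 against -0.02.

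The 7 standard beta subunits were the role group with the most uniform direction. All 7 were below 0 with intervals below 0 (median -0.49). Of all tested genes 26.2% had an interval below 0, and 33.1% of those with at least 200 counts. The counts of the 7 subunits summed to 5312 (KO) and 10590 (WT), which is -0.40 on the log2 scale (interval -0.45 to -0.36). *Psmb7*, which carries the trypsin-like site, had 315 KO counts and 957 WT counts, a log2 fold change of -1.01 (interval -1.20 to -0.83). It was just past the 2-fold limit, and *Psmd13*, at -0.92, was the nearest member that did not reach the limit. *Psmb5*, with the chymotrypsin-like site, had 554 and 1173 counts (-0.49). It shares 56.2% of its 51-base words with other genes, *Gm3375* the most, so that its counts and its ratio to *Psmb8* are uncertain. *Psmb6*, with the caspase-like site and the most counts of any member, had 1673 and 2864 counts (-0.18). The 3 protease subunits thus differed from each other in how far they were lower, and the intervals of *Psmb7* and *Psmb5* did not overlap. Of the beta subunits without a protease site, *Psmb1* (722 and 1633 counts, -0.58) and *Psmb4* (856 and 1901 counts, -0.56) had lower log2 fold changes than *Psmb2* (388 and 706 counts, -0.27) and *Psmb3* (804 and 1356 counts, -0.16). The counts of *Psmb3* are uncertain too, since it shares 55.0% of its words with other genes, *AC114990.1* the most.

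The alpha subunits, which form the outer rings of the core and its gate, were lower by less. Without *Psma8* their median was -0.25, and 5 of these 7 had an interval below 0 (71.4%, against 26.2% of all tested genes). The range ran from *Psma2*, with 455 KO counts and 974 WT counts (-0.51, interval -0.67 to -0.34), to *Psma4*, with 1484 and 2149 counts (0.06, interval -0.04 to 0.15). *Psma5* had the fewest counts of the standard core, 100 and 163, and its interval of -0.49 to 0.26 spans 0. Its counts are uncertain too, since 53.9% of its words occur in other genes, *Gm8394* the most. *Psma8*, the alpha subunit of the testis, had 7 KO counts and 3 WT counts, and its log2 fold change of 1.63 has an interval of -0.32 to 4.40. With 3 WT counts it lies at the floor taken for a library, and the germ cell genes *Dazl*, *Ddx4* and *Sycp3* summed to 0 KO counts and 4 WT counts.

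**Figure D2:**
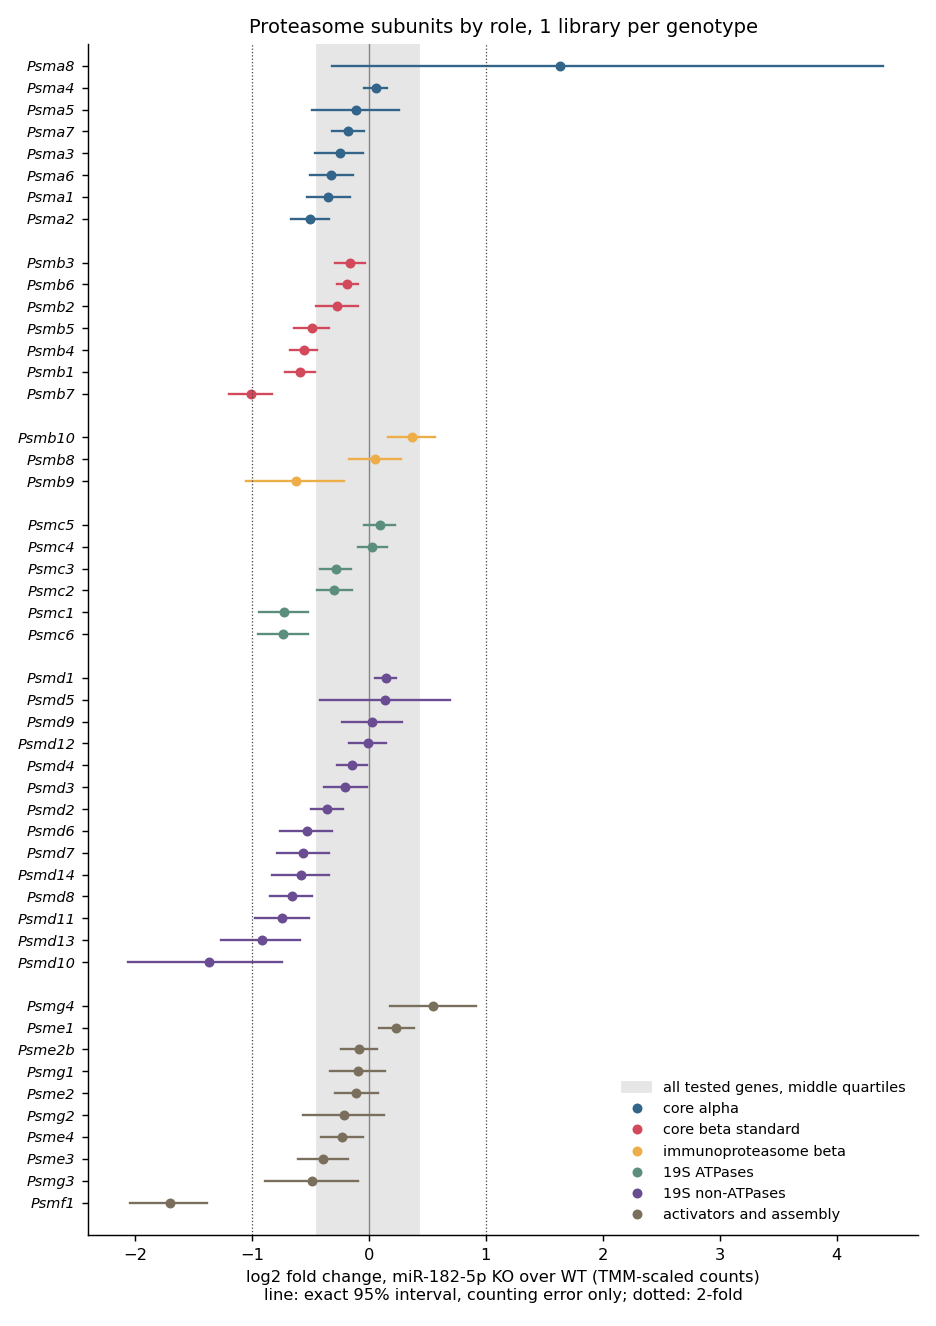
Log2 fold change of KO over WT for the 48 tested members (horizontal axis), grouped by role and sorted within each role, with exact 95% counting intervals as lines, the quartiles of all tested genes as a grey band and the 2-fold limits as dotted lines. All 7 standard beta subunits lie left of 0, *Psmf1* is the lowest at -1.70, and *Psma8*, with 10 counts in all, has the widest interval.

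Levels of different subunits can be compared only per length and within a library. Across the 14 standard core subunits the deposited FPKM, which are scaled to gene length, ran from 3.69 (*Psma3*) to 52.6 (*Psmb1*) in the KO library and from 6.67 to 120 for the same genes in the WT library, ratios of 14.2 and 18.0 for proteins that are present in equal number in the assembled core. The gene lengths that these FPKM imply for the core subunits range from 871 to 6255 bases, while their coding sequences in GENCODE M21 range from 603 to 831 bases. Per kilobase of coding sequence, a measure chosen after the data had been seen, the lowest was *Psma5* (138 KO counts and 225 WT counts) and the highest *Psmb6* (2343 and 4011). Both measures gave a wide spread in transcript level, and they placed different genes at its ends. On this measure *Psmb7* stood above *Psma6*, *Psma1* and *Psma3* in the WT library and below all of them in the KO library.

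**Figure D3:**
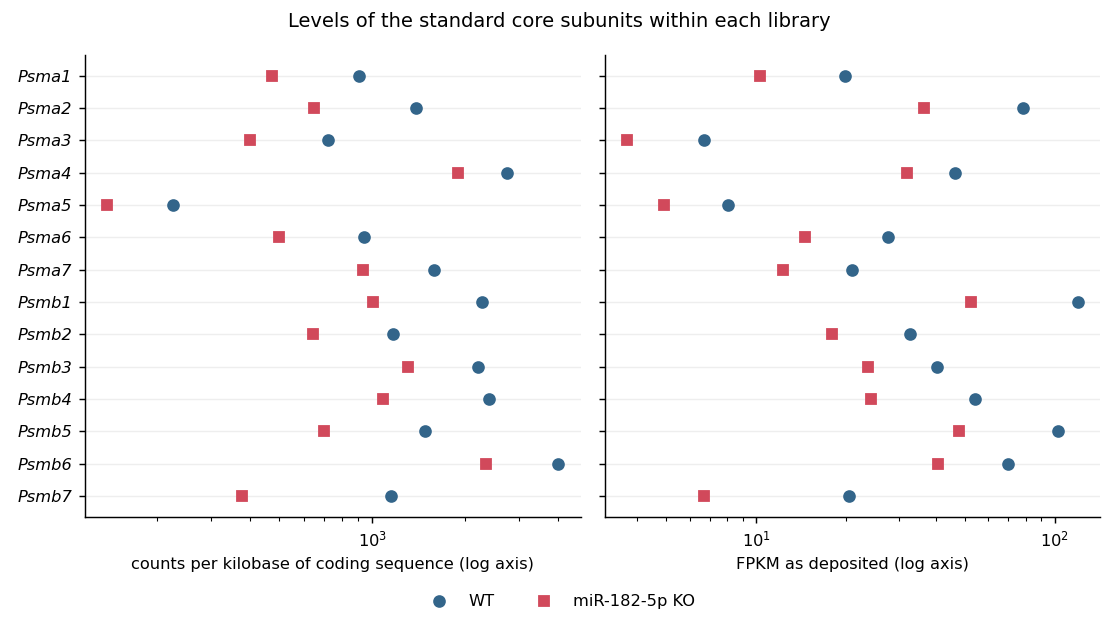
Level of each of the 14 standard core subunits in the WT library (circles) and the KO library (squares), as counts per kilobase of coding sequence (left, log axis) and as deposited FPKM (right, log axis). Neither axis is scaled by TMM, so the order of subunits within a library can be read from it and the distance between the libraries cannot; *Psmb6* is highest on the left and *Psmb1* on the right.

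The 3 immunoproteasome subunits differed from each other under TMM scaling. *Psmb10* had 390 KO counts and 456 WT counts, a log2 fold change of 0.37 (interval 0.17 to 0.56), which turned to -0.23 when libraries were scaled by total counts. *Psmb8* had 290 and 421 counts (0.05, interval -0.17 to 0.27, and -0.55 under total counts). *Psmb9* had 71 and 165 counts (-0.62, interval -1.05 to -0.21).

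The ratio of 2 genes within a library does not depend on scaling. Shares of counts are not scaled to gene length, so they do not show which gene of a pair had the higher level. By the deposited FPKM the ratio of *Psmb10* to *Psmb7* was 3.47 (KO) and 1.34 (WT). That of *Psmb8* to *Psmb5* was 0.118 (KO) and 0.0812 (WT). Per kilobase of coding sequence, *Psmb10* had 476 counts (KO) and 557 counts (WT), and *Psmb7* had 379 (KO) and 1152 (WT). In the WT library the order of *Psmb10* and *Psmb7* thus depended on the measure of length. The log2 difference between the libraries in the ratio of 2 genes does not depend on length. *Psmb10* made up 55.3% of the counts of its pair with *Psmb7* in the KO library (exact interval 51.6% to 59.0%) and 32.3% in the WT library (29.8% to 34.8%), a ratio 2.60 times as high in KO, or 1.38 on the log2 scale (interval 1.10 to 1.65). *Psmb8* made up 34.4% of its pair with *Psmb5* in KO (31.2% to 37.7%) and 26.4% in WT (24.3% to 28.6%), a log2 difference of 0.54 (interval 0.28 to 0.81). The pair of *Psmb9* and *Psmb6* went the other way, with 4.07% in KO (3.19% to 5.11%) and 5.45% in WT (4.67% to 6.32%), a log2 difference of -0.44 (interval -0.87 to -0.02). In the pair with the largest difference, *Psmb7* was lower and *Psmb10* was higher under TMM scaling. All of these intervals cover counting error only.

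**Figure D4:**
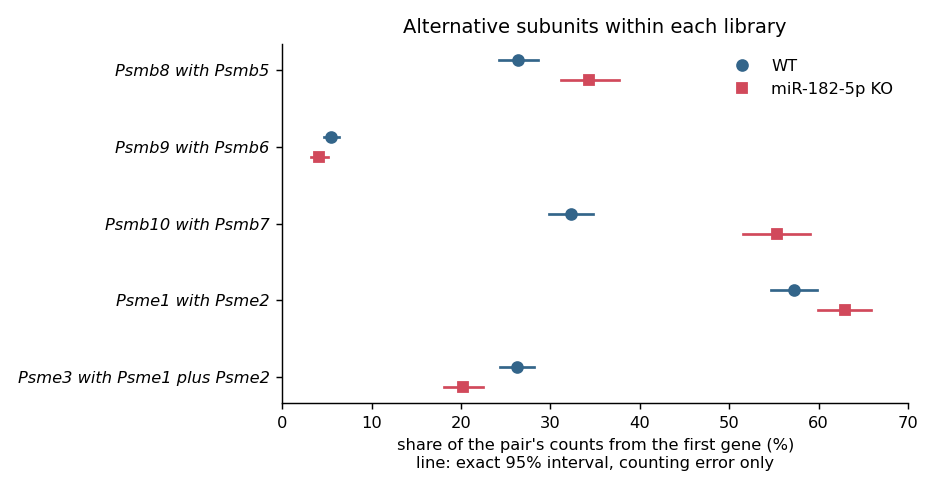
Share (%) of the counts of a pair that came from the gene named before "with", in the WT library (circles) and the KO library (squares), with exact 95% counting intervals as lines. The share of *Psmb10* is 55.3% (KO) and 32.3% (WT), and that of *Psmb9* is the lowest in both. Shares are not scaled to gene length, so they compare the libraries within a pair and not the levels of its genes.

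*Psmb9* and *Psmb8* lie in the MHC region of chromosome 17 with the genes of the peptide transporter. In the coordinates of the deposited table, on GRCm38, *Psmb9* occupies chr17:34181988-34187764, *Tap1* chr17:34187553-34197225, *Psmb8* chr17:34197721-34201454 and *Tap2* chr17:34203527-34216321. *Tap1* had 268 KO counts and 119 WT counts (1.76, interval 1.45 to 2.09). *Tap2* had 126 and 170 counts (0.16, interval -0.18 to 0.50). Along this stretch the log2 fold changes were thus -0.62, 1.76, 0.05 and 0.16 in order of position. *Psmb9* and *Tap1* are transcribed away from each other, and their deposited loci overlap by 212 bases. Whether reads were counted by strand is not given in the sources used here, so reads within the overlap cannot be assigned to either gene with certainty.

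The sequences before the starts of the immunoproteasome genes and of standard counterparts are shown because these members differed in direction, and that of *Psmd10* because it was past the 2-fold limit. They are from RefSeq (GRCm38.p6). Each is written 5′ to 3′ on the gene's own strand and holds the 250 bases before its RefSeq start, except the stretch of 225 bases between the starts of *Psmb9* and *Tap1*, chr17:34187331-34187555, which is written on the plus strand with *Psmb9* to its left and *Tap1* to its right. Capitals mark matches on either strand to TGACNNNGC (the core of the antioxidant response element, which Nrf1 and Nrf2 bind), AANNGAAA (the core bound by interferon regulatory factors), TTCNNNGAA (a STAT site) or CCAAT (the NF-Y box).
Psmb9 to Tap1: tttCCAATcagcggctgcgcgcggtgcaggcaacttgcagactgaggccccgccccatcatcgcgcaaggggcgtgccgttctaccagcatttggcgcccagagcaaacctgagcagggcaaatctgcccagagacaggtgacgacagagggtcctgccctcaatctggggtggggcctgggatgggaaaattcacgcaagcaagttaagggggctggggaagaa
Psmb8 (chr17:34197945-34198194, plus strand): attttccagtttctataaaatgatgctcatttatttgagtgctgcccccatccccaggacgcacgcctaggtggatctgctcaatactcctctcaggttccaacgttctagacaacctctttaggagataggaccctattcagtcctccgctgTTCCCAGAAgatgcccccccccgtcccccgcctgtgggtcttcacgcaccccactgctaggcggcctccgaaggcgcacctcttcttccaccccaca
Psmb10 (chr8:105938393-105938642, minus strand): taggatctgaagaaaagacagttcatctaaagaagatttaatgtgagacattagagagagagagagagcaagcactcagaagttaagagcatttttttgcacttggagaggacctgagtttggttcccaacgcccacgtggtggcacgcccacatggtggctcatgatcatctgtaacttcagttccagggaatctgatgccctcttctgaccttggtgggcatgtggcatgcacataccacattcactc
Psmb5 (chr14:54617996-54618245, minus strand): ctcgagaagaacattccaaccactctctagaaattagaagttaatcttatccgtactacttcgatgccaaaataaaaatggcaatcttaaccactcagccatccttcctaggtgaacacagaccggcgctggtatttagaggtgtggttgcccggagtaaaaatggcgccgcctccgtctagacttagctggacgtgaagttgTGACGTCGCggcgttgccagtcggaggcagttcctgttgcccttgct
Psmb6 (chr11:70525107-70525356, plus strand): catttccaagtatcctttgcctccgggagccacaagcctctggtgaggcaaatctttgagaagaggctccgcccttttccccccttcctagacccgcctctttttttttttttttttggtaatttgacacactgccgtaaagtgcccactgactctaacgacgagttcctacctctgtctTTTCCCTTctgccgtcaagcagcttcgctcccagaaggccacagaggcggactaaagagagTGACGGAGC
Psmd10 (chrX:140956712-140956961, minus strand): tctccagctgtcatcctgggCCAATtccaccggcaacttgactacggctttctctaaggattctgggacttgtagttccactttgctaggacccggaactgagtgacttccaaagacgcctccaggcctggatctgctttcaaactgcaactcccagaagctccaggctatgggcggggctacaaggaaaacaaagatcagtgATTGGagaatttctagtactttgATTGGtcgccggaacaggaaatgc
The STAT letters stand before the RefSeq start of *Psmb8*, and the antioxidant response letters before those of *Psmb5* and *Psmb6*. The interferon regulatory factor letters stand before that of *Psmb6*, and CCAAT before that of *Psmd10* and in the stretch between *Psmb9* and *Tap1*. The deposited loci begin elsewhere for some genes. The stretch for *Psmb8* lies within its deposited locus, that between *Psmb9* and *Tap1* within the locus of *Psmb9*, and that for *Psmd10* runs into its locus. No match to the 4 motifs was found in the stretch shown for *Psmb10*.

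Windows of 300 bases, from 250 before to 50 after the start, were given for 41 of the 49 members. The antioxidant response core occurred in 6 of the 41 (14.6%, against 12.4% of all 32851 windows), in *Psmb5*, *Psmb6*, *Psmc6*, *Psmd9*, *Psmd12* and *Psme4*. These 6 genes ranged from -0.73 (*Psmc6*) to 0.03 (*Psmd9*). The interferon regulatory factor core occurred in 12 (29.3%, against 23.9%), the STAT letters in 3 (7.32%, against 8.30%) and CCAAT in 14 (34.1%, against 37.4%). The shares of the members were close to those of all windows for each of the 4 motifs. No window was given for *Psma8*, *Psmb1*, *Psmb2*, *Psmb7*, *Psmc3*, *Psmd3*, *Psmd7* and *Psmg2*.

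The 6 ATPases of the 19S cap, which unfold the substrate and open the gate of the core, separated into 3 levels of difference although they form a single ring. *Psmc1* had 268 KO counts and 668 WT counts (-0.72, interval -0.94 to -0.52). *Psmc6* had 251 and 630 counts (-0.73, interval -0.95 to -0.52). *Psmc2* (558 and 1033 counts) and *Psmc3* (721 and 1324 counts) were at -0.30 and -0.28. *Psmc4*, with 919 and 1356 counts (0.03, interval -0.09 to 0.15), and *Psmc5*, with 815 and 1153 counts (0.09, interval -0.04 to 0.22), had intervals that span 0 and do not overlap with those of the other 4.

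Among the 14 non-ATPase genes of the cap, the lid genes shared a direction. All 8 lid genes were below 0 (against 50% of all tested genes), with a median of -0.57. The interval lay below 0 for 7 of them (87.5%, against 26.2% of all tested genes). Their summed counts were 2288 in KO and 4707 in WT (-0.45, interval -0.52 to -0.38). *Psmd13* was the lowest of them at -0.92 (interval -1.26 to -0.59). *Psmd11* had 218 and 549 counts (-0.74) and *Psmd8* 365 and 870 counts (-0.66). *Psmd14*, the deubiquitinase that removes the ubiquitin chain, had 203 and 458 counts (-0.58, interval -0.83 to -0.34). *Psmd12*, with 532 and 808 counts, was the lid gene whose interval spans 0 (-0.01, interval -0.17 to 0.15).

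The base subunits and chaperones of the cap were mixed. *Psmd1*, a scaffold of the base, had 1640 KO counts and 2238 WT counts and was slightly higher (0.14, interval 0.05 to 0.24), a sign that turned to -0.46 under scaling by total counts. *Psmd2*, the other scaffold, had 670 and 1292 counts (-0.35, interval -0.49 to -0.22). The ubiquitin receptor *Psmd4* had 839 and 1398 counts (-0.14, interval -0.27 to -0.02). The intervals of the 2 scaffold genes did not overlap. Of the chaperones that assemble the base, *Psmd10* (gankyrin, chrX:140948429-140956728) had 26 and 102 counts and was past the 2-fold limit (-1.37, interval -2.06 to -0.75). *Psmd5* (49 and 67 counts, 0.14) and *Psmd9* (213 and 315 counts, 0.03) had intervals that span 0. *Psmd9* overlaps the hepatocyte gene *Hpd* on the opposite strand.

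The activators and their inhibitor held the largest single difference. *Psmf1*, which encodes the proteasome inhibitor PI31 (chr2:151715812-151744186, minus strand), had 95 KO counts and 468 WT counts, a log2 fold change of -1.70 (interval -2.04 to -1.39), or 3.26 times lower in KO. *Psme1* and *Psme2* encode the subunits of the interferon-inducible activator PA28 alpha/beta. *Psme1* had 667 and 854 counts (0.24, interval 0.09 to 0.38), and -0.37 under scaling by total counts. *Psme2* had 393 and 638 counts (-0.11, interval -0.29 to 0.08). The counts of *Psme2* are uncertain, since it shares 58.9% of its 51-base words with other genes, *Psme2b* (554 and 885 counts, -0.08) the most. The counts of *Psme2* and *Psme2b* together gave -0.09 (interval -0.21 to 0.02).

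The nuclear activator *Psme3*, or PA28 gamma, had 268 KO counts and 530 WT counts (-0.39, interval -0.61 to -0.18). Its counts were 20.2% of the sum of *Psme1*, *Psme2* and *Psme3* in KO (18.1% to 22.4%) and 26.2% in WT (24.3% to 28.2%). *Psme4*, the activator PA200, had 405 and 714 counts (-0.23, interval -0.41 to -0.05). Of the chaperones of core assembly, *Psmg4* had 124 and 128 counts (0.54, interval 0.18 to 0.91) and was the highest member after *Psma8*, at -0.055 under scaling by total counts. The other chaperones, *Psmg1*, *Psmg2* and *Psmg3*, lay between -0.48 and -0.10.

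Genes that act with the proteasome were described from lists of related pathways. For these lists and the cell markers below, the background is that 50% of all tested genes were below 0. Past the 2-fold limit were 9.46% in the higher and 9.94% in the lower direction. Of 12 proteasome partners outside the rule, such as the bound ubiquitin ligases and deubiquitinases, 7 were below 0 (median -0.03), and *Ube3a*, a ubiquitin ligase, was past the 2-fold limit with 592 KO counts and 388 WT counts (1.20). The partners with the most counts were *Shfm1*, a small lid subunit (741 and 1355 counts, -0.28), and *Txnl1*, a thioredoxin-like protein of the cap (626 and 1470 counts, -0.64). Of 12 genes of the Nrf1 axis, 7 were above 0 (median 0.39, and -0.21 under scaling by total counts). *Nfe2l1* itself had 485 and 293 counts (1.32, interval 1.11 to 1.53), and *Sel1l*, of the endoplasmic reticulum degradation complex, had 116 and 37 counts (2.22). *Nfe2l1* transcripts were higher in the KO library and those of the standard beta subunits were lower. A relation between the 2 was not tested, and Nrf1 protein was not measured here.

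The 7 genes of ubiquitin supply and activation had a median of 0.21 (-0.40 under scaling by total counts). *Ubb*, which encodes repeats of ubiquitin and had the most counts of this list, had 3034 KO counts and 5800 WT counts (-0.34, interval -0.41 to -0.28). Reads from such repeats can be hard to assign to their gene. Substrate delivery was represented by 12 genes with a median of -0.06 and none past the 2-fold limit.

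Most genes of the interferon response were higher in the KO library. Of 16 genes of the interferon response, 15 were above 0 with intervals above 0 (93.8%, against 25.8% of all tested genes). The 2-fold limit was passed by 11 (68.8%, against 9.46%). The median was 1.28, and 0.68 under scaling by total counts. *Irf7*, a transcription factor of this response, had 717 KO counts and 342 WT counts (1.66). *Ifit1* had 189 and 66 counts (2.10), and *Stat2*, with the most counts of the list, had 2781 and 1931 (1.12). *Irf1*, a further transcription factor, had 298 and 247 counts (0.86) and was below the limit. *Psmb8*, *Psmb9*, *Psmb10*, *Psme1* and *Psme2*, which interferon is known to induce, lay between -0.62 and 0.37.

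Of 11 genes of class I antigen processing, 7 were above 0 (median 0.16, and -0.44 under scaling by total counts), and *Tap1* alone was past the 2-fold limit. *B2m*, the light chain of class I, had 18025 KO counts and 24076 WT counts (0.17), and -0.43 under scaling by total counts. Leukocytes express the immunoproteasome constitutively, and the 17 leukocyte markers summed to 705 KO counts and 1055 WT counts, with *Ly6g* and *Klrb1c* at 0 in both libraries. Of the 10 leukocyte markers with enough counts, 8 were above 0 and 2 below 0 under TMM scaling. The interval lay above 0 for 2 of the 10, lay below 0 for 1 and spanned 0 for 7. Past the 2-fold limit were *Ptprc* (41 KO counts and 15 WT counts, 2.00) and *Cd79a* (12 and 4 counts, 2.02, interval 0.46 to 4.27). The marker with the interval below 0 was *Cd74*, named here after its values were seen. It had 124 and 302 counts (-0.69, interval -1.01 to -0.39). *Cd3e* and *Cd3g*, also named after their values were seen, had 0 KO counts, against 3 and 5 WT counts, too few for a fold change. The part of leukocytes in the values of the immunoproteasome was not tested.

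**Figure D5:**
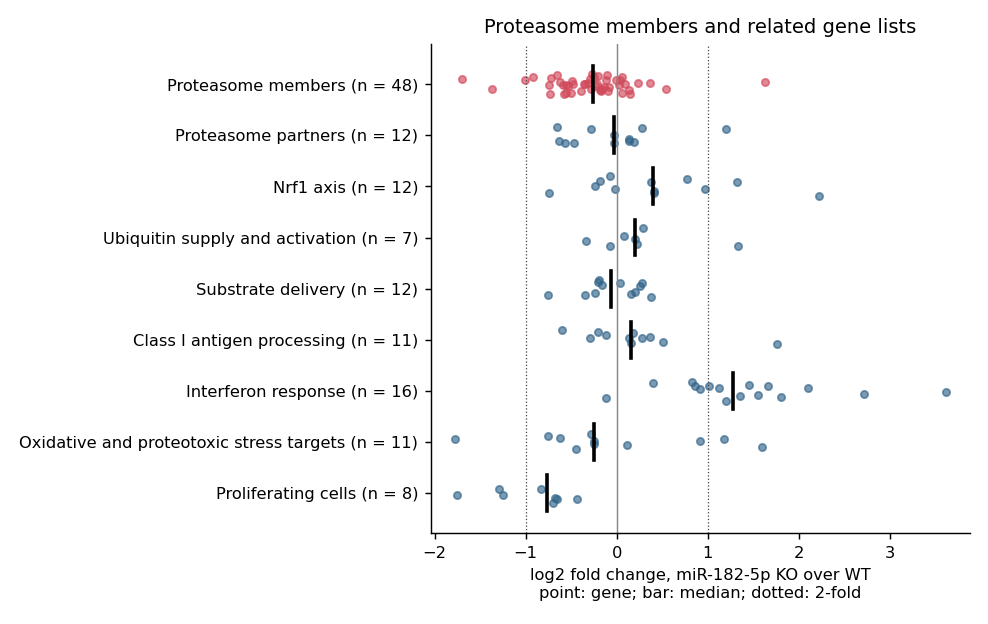
Log2 fold change of KO over WT (horizontal axis) for each tested gene (points) of the proteasome members and of 8 related lists, with the median of each as a bar and the 2-fold limits as dotted lines. The interferon response lies highest, with a median of 1.28, the proliferating-cell markers lowest, with -0.76, and the proteasome members at -0.26.

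Of 11 oxidative and proteotoxic stress genes, 7 were below 0, all with intervals below 0 (63.6%, against 26.2% of all tested genes). The other 4, all heat shock genes, were above 0, so the median of -0.25 pools both directions. *Nqo1*, a classic target of Nrf2, had 30 KO counts and 156 WT counts (-1.77), whereas the heat shock genes *Hspa1a* (43 and 21 counts, 1.60) and *Hspa1b* (112 and 74 counts, 1.18) were higher. *Sqstm1*, the autophagy receptor with the most counts of the list, had 2214 and 4045 counts (-0.28). All 8 markers of proliferating cells were below 0 with intervals below 0 (median -0.76), against 26.2% of all tested genes. They summed to 1700 KO counts and 4231 WT counts. *Cdk1* had 106 and 540 counts (-1.75), and *Mki67*, with the most counts of these markers, 973 and 1989 (-0.44). The direction of these markers was that of most proteasome members, and their part in the values of the proteasome genes was not tested.

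Some members share sequence or position with other genes, which limits how firmly their counts can be assigned. Of the 49 members, 12 share over 10% of their 51-base words with the transcripts of other genes, and 17 have a locus that overlaps another gene of the table. Without those that share words the median of the members was -0.28, and without those that overlap it was -0.35. *Psmb7* overlaps *Nek6* on the opposite strand, *Psmb10* overlaps *Gm16156*, *Psmb8* overlaps *Gm20496*, and *Psmd13* overlaps *Sirt3*.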

How the data were processed

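RNA-seq of liver poly(A) RNA, 1 library per genotype, was used as the authors deposited it: raw read counts per gene and the FPKM computed from them. The authors' processing notes name HISAT2 2.0.4, StringTie and edgeR, and the annotation and the gene lengths behind the FPKM are not given in the sources used here. Members and gene lists were chosen with earlier results of these data known. Every member may be named. Of the other lists, genes past a 2-fold change, the gene with the most counts, and *Tap1*, *Tap2*, *Irf1* and *B2m* were named. Some genes that this rule would name are not reported here.

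Genes with a summed count of at least 10 were kept, and their counts were scaled by TMM in edgeR 4.0.16 (R 4.3.3), and log2 fold changes were taken with a prior count of 0.5. Intervals of folds and shares are exact 95% binomial (Clopper-Pearson) intervals, and those of ratios of pairs are exact conditional intervals (scipy 1.17.1). They cover counting error only. A library with 3 counts or fewer was taken as at the floor. DESeq2 1.42.0 gave alternative size factors. The scaling and fold steps were tested on simulated counts with known folds. Apart from the changed genes, both simulated libraries were drawn from the same mean profile, so the unequal mitochondrial share was not simulated. Coding lengths and overlaps came from GENCODE M21, in which 36 of the 49 members have the deposited coordinates, and promoters from RefSeq. Figures were drawn with matplotlib 3.10.9. Protein sequences and the level of the deleted miRNA were not analysed here.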

Additional observations from a re-analysis of the deposited data

How the results depend on the processing

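No paired analysis was possible because there was 1 library for KO and 1 for WT, and for the same reason no replicate could be left out. DESeq2 size factors and the upper quartile left the log2 fold change of every member within its counting interval. The counts of members past a 2-fold change were the same. The median of all members was -0.27 under DESeq2 size factors and -0.25 under the upper quartile. Each role group's median stayed between the medians of its genes' lower and upper interval ends, a band that is not an interval of the median. Scaling by total counts, which includes the mitochondrial genes, gave 17 of 48 members past a 2-fold change in the lower direction. Of all tested genes, 26.6% were past it under that scaling. The median over the members was then -0.86, and the role groups had medians of -0.81 (alpha), -1.09 (standard beta), -0.55 (immunoproteasome), -0.89 (ATPases), -1.04 (non-ATPases) and -0.76 (activators and assembly). The deposited FPKM gave 17 lower (against 21.6% of all tested genes) and 0 higher (against 2.99%). The medians were -0.85, -0.80, -1.09, -0.54, -0.88, -1.03 and -0.76 in the same order. Relative to the median of all genes, the members' median was -0.26 under both TMM and total counts and -0.31 under the FPKM. Of the 11 members above 0 under TMM, 10 turned below 0 under total counts and under the FPKM, and *Psma8* did not. Those of the 10 with an interval above 0, *Psmd1*, *Psme1*, *Psmg4* and *Psmb10*, turned under total counts (-0.46, -0.37, -0.055 and -0.23) and under the FPKM (-0.46, -0.36, -0.055 and -0.23), as did *B2m* (-0.43 and -0.43). A prior count of 5 or a minimum of 50 counts left 0 members past a 2-fold change in the higher direction, since *Psma8* has 10 counts. Of all tested genes, 7.49% (prior count of 5) and 5.88% (at least 50 counts) were past it.

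Among the related lists, total counts and the FPKM turned the sign of the medians of the Nrf1 axis (-0.21 and -0.20), class I processing (-0.44 and -0.43), hepatocyte markers (-0.46 and -0.46), ubiquitin supply (-0.40 and -0.39) and leukocytes (-0.44 and -0.35). They moved, with no change of sign, those of the partners (-0.63 and -0.61), substrate delivery (-0.66 and -0.64), the interferon response (0.68 and 0.66), stress targets (-0.85 and -0.85), Kupffer cells (-0.86 and -0.84), endothelial cells (-0.96 and -0.86) and proliferating cells (-1.36 and -1.33), and total counts moved that of stellate cells (-1.20). Without the mitochondrial genes in the total, the hepatocyte median was 0.051. With at least 50 counts, the cholangiocyte list kept 1 gene and its median was -0.31.

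The summed counts of all members moved to -0.84 (total counts), -0.33 (total without mitochondrial genes) and -0.88 (summed FPKM). In the same order they moved to -0.77, -0.26 and -0.87 for alpha, -1.0, -0.49 and -1.04 for standard beta, -0.81, -0.30 and -0.84 for ATPases, -0.83, -0.32 and -0.94 for non-ATPases, and -0.77, -0.25 and -0.66 for activators and assembly, and those of the immunoproteasome to -0.48 (total) and -0.34 (FPKM). Without the member with the most counts they were -0.30 (alpha, without *Psma4*), -0.49 (beta, without *Psmb6*), -0.11 (immunoproteasome, without *Psmb10*), -0.29 (ATPases, without *Psmc4*), -0.36 (non-ATPases, without *Psmd1*) and -0.27 (activators and assembly, without *Psme1*). The cause of these shifts was not tested beyond the shift of all genes that a scaling brings.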

Other observations

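The authors' annotation places 44 genes in the KEGG proteasome pathway, of which 41 are members and 3 are not (*Ifng*, *Pomp* and *Shfm1*). The 8 members outside that pathway, *Psmd5*, *Psmd9*, *Psmd10*, *Psmd13* and *Psmg1* to *Psmg4*, ranged from -1.37 (*Psmd10*) to 0.54 (*Psmg4*).

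Across the 47 tested members other than *Psma8*, the log2 fold change and the length of the coding sequence had a Spearman rho of -0.02, and the log2 fold change and the length implied by the FPKM a rho of -0.00046. Across all 7256 genes of at least 200 counts with an FPKM above 0 in WT, the log2 fold change and the length implied by the FPKM had a rho of 0.19, from values that share both libraries and their depth. These are descriptions across genes of the same 2 libraries, and genes are not independent replicates.

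Nonparenchymal markers other than leukocyte and cholangiocyte genes were mostly lower in the KO library under TMM scaling, where 50% of all tested genes were below 0. Of 8 Kupffer cell and macrophage markers, 7 were below 0 (median -0.26), of 5 endothelial markers 4 (median -0.36), and of 6 stellate cell markers 5 (median -0.60), while the 4 cholangiocyte markers had a median of 0.98 from 121 KO counts and 157 WT counts in all. The 6 hepatocyte markers had a median of 0.14, the 10 tested leukocyte markers a median of 0.15. Their part in the values of the proteasome genes was not tested.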
